A study of Mus musculus with 6 samples.

Results

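The matrix metalloproteinase genes and the genes of their tissue inhibitors, the Timps, were followed in the Achilles tendon of mice that carry an overactive mechanosensitive channel. The members were taken by symbol from the deposited count table and number 10 of its 24411 genes, with 6 metalloproteinases (Mmp2, Mmp3, Mmp11, Mmp13, Mmp14 and Mmp19) and all 4 Timp genes (Timp1 to Timp4). RNA-seq was made from total RNA of Achilles tendon of C57BL/6 mice at 18 weeks of age, with 3 WT libraries and 3 libraries of the genotype Scx-Cre/Piezo1 GOF, called Piezo1 GOF here. Piezo1 encodes a mechanically gated cation channel, GOF stands for gain of function, and the Cre recombinase is driven by Scx, a transcription factor gene of the tendon lineage, so the allele acts in cells of that lineage and their descendants while the RNA comes from the whole tissue. The WT label names neither a Cre nor the GOF allele, and the labels do not say that libraries came from separate animals, so every p-value reflects the spread among these 6 libraries alone, part of which may be technical.

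Metalloproteinases are zinc enzymes that are made as inactive proenzymes and cut collagens, proteoglycans and other matrix proteins once activated. Timps bind the active site of the enzymes and block it, so the ratio of protease to inhibitor is often used to describe the capacity of a tissue to turn its matrix over. In tendon, whose dry mass is mostly type I collagen, this balance is known to shift with loading, injury and ageing. Transcript levels do not measure proenzyme activation or inhibitor bound in the matrix.

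Total counts per library lay between 8131527 and 17180856. Levels are given as CPM, counts relative to library size. Piezo1 itself ranged from 103 to 144 CPM in WT and from 128 to 178 CPM in Piezo1 GOF, and since the allele alters how the channel works and not necessarily its transcript, this is no check of the labels. Tenocyte markers were present in every library, with Tnmd between 15.8 and 264 CPM and Thbs4 between 1738 and 5868 CPM. WT replicate 2 stood apart, with a summed level of 5089 CPM for 12 tenocyte markers against 14921 and 10905 CPM in the other WT libraries and 29153 to 50643 CPM in Piezo1 GOF. It also had the highest share of counts from 24 skeletal muscle markers, 16.9%, against 9.31% and 14.4% in WT replicates 1 and 3 and 7.96%, 2.94% and 7.29% in Piezo1 GOF replicates 1 to 3. WT replicate 1 was the highest for markers of Schwann cells (3751 CPM, against 169.9 to 609 CPM in the other 5 libraries) and of smooth muscle and pericytes (4853 CPM, against 894 to 1556 CPM). In such bulk tissue, fewer cells of a type and less RNA per cell cannot be told apart. CPM below are scaled with the trimmed mean of M-values (TMM). Fold changes are Piezo1 GOF over WT with their standard error (SE), and p-values of the edgeR quasi-likelihood fit were adjusted after Benjamini and Hochberg over all 13466 tested genes.

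Transcripts of 3 of the 4 inhibitors were higher in every Piezo1 GOF library than in any WT library, while the most abundant protease, Mmp2, and its activator Mmp14 were at like levels in both genotypes. Mmp3 was the exception among the proteases with a higher level in all 3 mutant libraries, and Mmp11 was lower in all 3. Of the 10 members, 9 had enough counts to be tested and Mmp13 did not. None of the 9 passed an adjusted p of 0.05 by edgeR, a threshold that 0.0149% of all tested genes passed upward and 0% downward. At an unadjusted p under 0.05, Mmp3, Timp1, Timp2 and Timp3 were higher and Mmp11 lower, where 10.2% of all tested genes were higher and 9.59% lower by this rule. The same 4 genes did not overlap between the groups upward and Mmp11 downward, against 13.6% and 12.1% of all tested genes. DESeq2, as another tool, passed Timp1 (adjusted p = 0.00402), Timp2 (0.00928), Timp3 (0.00540) and Mmp11 (0.0334) and left Mmp3 at 0.0525, with 3.46% of the genes it tested called higher and 2.51% lower. The edgeR exact test called all 5 of these genes (3.36% of all genes higher, 1.76% lower) and limma voom with quality weights called 0 of them (0.72% and 0.141%). The median log2 fold change was 1.28 over the 4 Timps and 0.08 over the 5 tested proteases, beside -0.0045 over all tested genes.

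**Figure D1:**
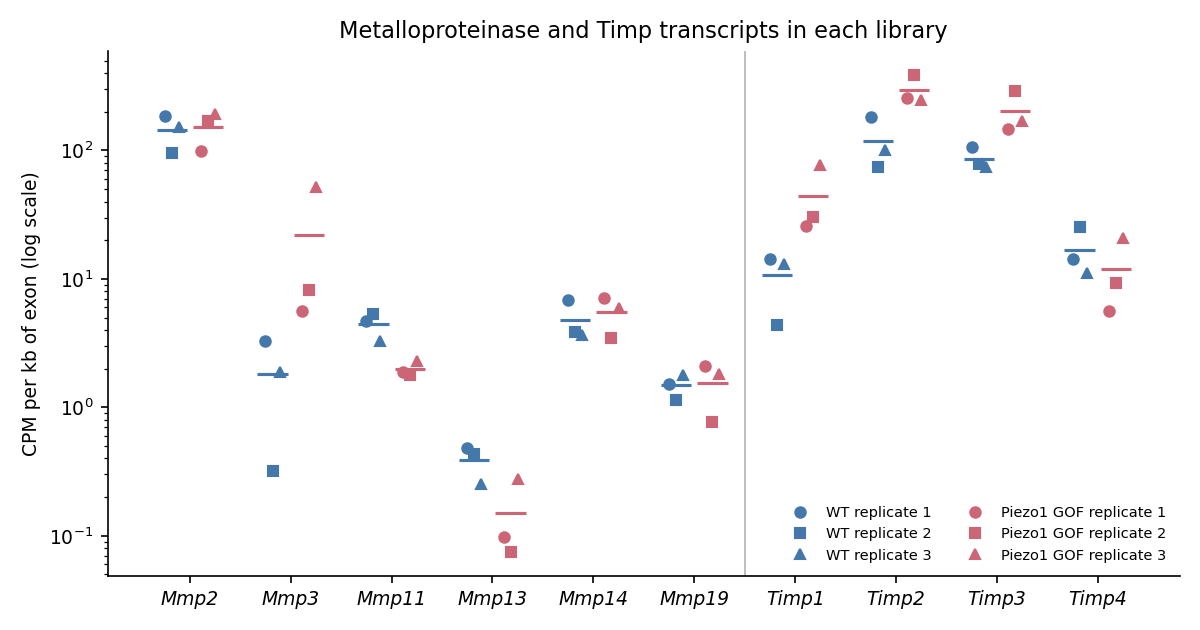
Level of each member in each library as CPM per kilobase of exon on a log axis, with WT in blue, Piezo1 GOF in red, marker shapes for replicate numbers and bars for group means. Timp1, Timp2 and Timp3 are higher in all 3 Piezo1 GOF libraries than in any WT library, Mmp3 likewise with 1 library far above the rest, and Mmp2, Mmp14, Mmp19 and Timp4 overlap.

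Timp2 encodes the inhibitor that also takes part in activation of the Mmp2 proenzyme, by holding it on membrane-bound Mmp14 at the cell surface. In replicates 1 to 3, WT tendon had 703, 288 and 393 CPM, and Piezo1 GOF tendon had 998, 1515 and 957 CPM. The genotypes were fully separate, with the lowest value in WT replicate 2 and the highest in Piezo1 GOF replicate 2. The level was 2.51-fold higher (log2 1.33 ± 0.41 SE; edgeR adjusted p = 0.165; n = 3 per group).

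Timp3, the inhibitor that binds to the extracellular matrix and also blocks the sheddase Adam17 and aggrecanases, was at 865, 636 and 605 CPM in WT and 1202, 2382 and 1376 CPM in Piezo1 GOF. The groups did not overlap, and Piezo1 GOF replicate 2 was again the highest. The log2 fold change was 1.24 ± 0.38 (edgeR adjusted p = 0.167), or 2.36-fold. Timp2 and Timp3 followed each other closely across the libraries: after centring each gene on its mean, their log2 CPM differed by 0.22 on average over the 6 libraries, the smallest such difference between any 2 tested members.

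Levels of both genes followed the composition of the libraries only in part. The 3 mutant libraries had the highest tenocyte marker sums and the lowest muscle shares, and Piezo1 GOF replicate 2, highest for Timp2 and Timp3, had the largest tenocyte sum (50643 CPM) and the smallest muscle share (2.94%). Within WT, Timp3 was lower in replicate 3 (605 CPM) than in replicate 2 (636 CPM), the library with the smallest tenocyte sum and the largest muscle share. Within the mutant, Timp2 was lower in replicate 3 (957 CPM) than in replicate 1 (998 CPM), while replicate 3 had the larger tenocyte sum and the smaller muscle share. With the mean level of the muscle markers as a covariate, the log2 fold change was 0.84 ± 0.33 for Timp2 (unadjusted p = 0.0346, edgeR adjusted p = 0.543) and 0.73 ± 0.32 for Timp3 (unadjusted p = 0.0506, adjusted p = 0.576). With the muscle markers removed before scaling they were 1.31 ± 0.40 and 1.21 ± 0.37. The part of tissue composition in the difference was not tested beyond these fits.

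Timp1, the inducible soluble inhibitor that blocks most secreted metalloproteinases, had the largest fold change of the inhibitors from the lowest level among them. It was at 12.8, 3.90 and 11.7 CPM in WT and at 22.8, 26.9 and 68.6 CPM in Piezo1 GOF. The groups did not overlap, and Piezo1 GOF replicate 3 stood far above the other mutant libraries. The log2 fold change was 2.08 ± 0.54 (4.23-fold; edgeR adjusted p = 0.127), and 98.8% of tested genes had a lower one. It was 1.41 ± 0.48 (2.66-fold; adjusted p = 0.282) without Piezo1 GOF replicate 3.

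Timp4, an inhibitor known from heart, skeletal muscle and fat, did not share the direction of the other inhibitors. It was at 83.8, 149 and 65.9 CPM in WT and at 33.0, 54.6 and 123 CPM in Piezo1 GOF, so Piezo1 GOF replicate 3 lay within the WT range and the other 2 mutant libraries below it. Its log2 fold change was -0.50 ± 0.48 with a 95% interval from -1.58 to 0.58 (edgeR adjusted p = 0.580). Without Piezo1 GOF replicate 3 it was -1.18 ± 0.41 (unadjusted p = 0.0228, adjusted p = 0.289). Within WT, the library with the most Timp4 was replicate 2, which also had the largest muscle share and the highest adipocyte marker sum. That sum was 2328, 2850 and 1547 CPM in WT replicates 1 to 3, in the same order as Timp4. The muscle share was lower in WT replicate 1 (9.31%) than in replicate 3 (14.4%), unlike Timp4. In the mutant the highest Timp4 level was in replicate 3, where the 10 adipocyte markers summed to 3533 CPM against 1819 and 2100 CPM in replicates 1 and 2, and the muscle share of 7.29% was below that of replicate 1. Across genotypes this order was not kept: Piezo1 GOF replicates 1 and 2 had larger adipocyte sums than WT replicate 3 but less Timp4. Of the 10 adipocyte markers, 8 had a positive fold change and 2 a negative one, with a median log2 fold change of 1.08. With the mean level of the muscle markers as a covariate, the log2 fold change of Timp4 was -0.07 ± 0.60 (edgeR adjusted p = 0.986). With the muscle markers removed before scaling it was -0.53 ± 0.47. The part of muscle in the Timp4 level was not tested beyond these fits, and that of fat was not tested.

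**Figure D2:**
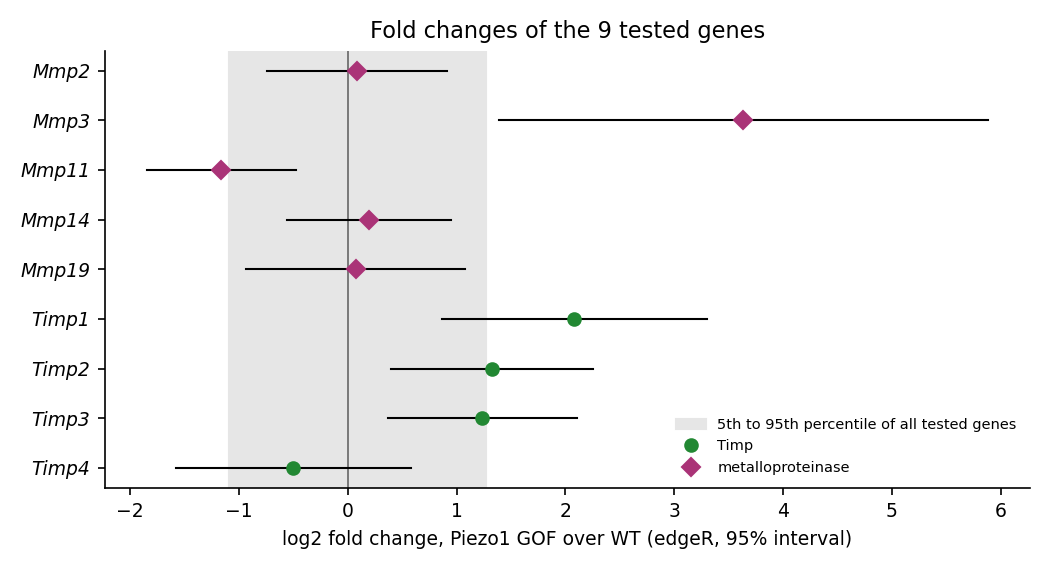
Log2 fold change of Piezo1 GOF over WT for the 9 tested members with 95% intervals from edgeR, diamonds for metalloproteinases and circles for Timps, over a grey band for the 5th to 95th percentile of all tested genes (-1.09 to 1.27). Mmp3, Timp1 and Timp2 lie to the right of the band and Mmp11 to the left, and the intervals of Mmp2, Mmp14, Mmp19 and Timp4 include 0.

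Mmp2, gelatinase A, which digests denatured collagen and basement membrane collagen, supplied most of the measured protease transcript. It was at 625, 319 and 515 CPM in WT and at 333, 569 and 644 CPM in Piezo1 GOF, with full overlap of the groups. The log2 fold change was 0.08 ± 0.36 with a 95% interval from -0.74 to 0.91 (edgeR adjusted p = 0.919), so a difference of up to 1.88-fold upward or a fall to 0.598 of the WT level lies within the interval. Per kilobase of exon, Mmp2 made up 89.6% to 93.4% of the summed level of the 6 proteases in WT and 85.5%, 92.2% and 75.6% in Piezo1 GOF replicates 1 to 3.

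Mmp14, the membrane-bound metalloproteinase that cuts fibrillar collagen around the cell and activates the Mmp2 proenzyme, was at 40.7, 23.0 and 21.7 CPM in WT and at 42.0, 20.8 and 35.1 CPM in Piezo1 GOF. The groups overlapped, and each spanned about the same range. The log2 fold change was 0.20 ± 0.33 with a 95% interval from -0.56 to 0.95 (edgeR adjusted p = 0.766). Mmp19, a secreted enzyme of basement membrane and other matrix substrates, was at 5.37, 4.02 and 6.33 CPM in WT and at 7.41, 2.71 and 6.38 CPM in Piezo1 GOF. Its groups overlapped as well, with a log2 fold change of 0.07 ± 0.44 and an interval from -0.93 to 1.08 (adjusted p = 0.945). For these 3 proteases the sign of the small fold change turned when single libraries were left out, so no direction can be given.

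Mmp11, stromelysin-3, differs from most secreted members in that furin inside the cell activates it before secretion. It was at 13.1, 14.7 and 9.16 CPM in WT and at 5.20, 4.92 and 6.38 CPM in Piezo1 GOF, and all 3 mutant libraries lay below all 3 WT libraries. Its log2 fold change was -1.16 ± 0.30 (edgeR adjusted p = 0.128), a level 2.24-fold lower, with a narrow spread of 0.774 CPM (SD, n = 3) in the mutant. The value lay between -1.34 and -1.02 whichever library was left out. Mmp11 shares exon bases with Chchd10, a mitochondrial protein gene on the opposite strand of chromosome 10. Chchd10 had 151, 109.6 and 189 CPM in WT libraries and 142, 36.8 and 81.7 CPM in mutant ones (-0.79 ± 0.44 on the log2 scale; edgeR adjusted p = 0.341). Use of strand by the counting step is not stated, so reads of the pair cannot be told apart where they overlap and the Mmp11 value is uncertain.

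Mmp3, stromelysin-1, cuts proteoglycans, fibronectin and several proenzymes of the family, including procollagenases. It had the largest fold change of the members and the widest spread. It was at 5.91, 0.575 and 3.39 CPM in WT, which is 55, 9 and 30 counts, and at 10.1, 14.7 and 92.9 CPM in Piezo1 GOF, which is 78, 147 and 1253 counts. The groups did not overlap, but 1 library, Piezo1 GOF replicate 3, held most of the mutant counts, and WT replicate 2 was far below the other WT libraries. Its log2 fold change was 3.63 ± 0.99 with an interval from 1.39 to 5.88 (edgeR adjusted p = 0.140), and 99.9% of tested genes had a lower one. Without Piezo1 GOF replicate 3 it was 1.95 ± 0.77 (3.86-fold; adjusted p = 0.313), and without WT replicate 1 it was 4.46 ± 1.17 (adjusted p = 0.0833).

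**Figure D3:**
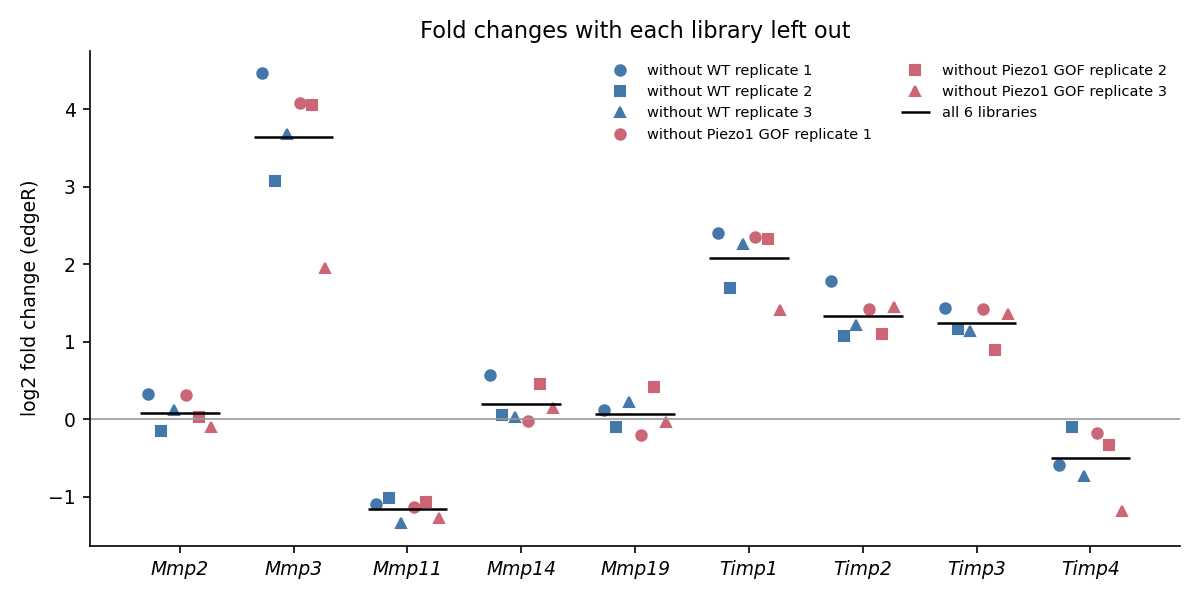
Log2 fold change of each tested member from edgeR with 1 library left out at a time, in blue for a WT library and red for a Piezo1 GOF library, and a black bar for all 6 libraries. Mmp3, Timp1, Timp2 and Timp3 stay above 0 and Mmp11 below 0 in each of these 6 fits, while Mmp3 and Timp1 are lowest without Piezo1 GOF replicate 3 and Mmp2, Mmp14 and Mmp19 lie on both sides of 0.

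Without WT replicate 2, the WT library poorest in tenocyte markers, the log2 fold changes were 1.08 ± 0.41 for Timp2, 1.17 ± 0.44 for Timp3, 1.69 ± 0.49 for Timp1, 3.08 ± 0.99 for Mmp3 and -1.02 ± 0.34 for Mmp11 (edgeR adjusted p of 0.282 to 0.349). Timp4 was at -0.09 ± 0.49 without that library. Without WT replicate 1, Timp2 was at 1.78 ± 0.40 (adjusted p = 0.0619), and the other 4 kept the sign they had with all 6 libraries.

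Mmp13, the main interstitial collagenase of rodents and a gene of hypertrophic chondrocytes and osteoblasts, was barely detected. It had 12, 18 and 6 counts in WT and 2, 2 and 10 counts in Piezo1 GOF, or 1.29, 1.15 and 0.679 CPM against 0.260, 0.201 and 0.741 CPM. Replicate 3 of the mutant lay within the WT range, and the gene was removed by the count filter. DESeq2, which tested it, gave a log2 fold change of -1.35 ± 1.04 (adjusted p = 0.501). The 10 cartilage markers in the table summed to 3661, 536 and 2293 CPM in WT and to 13965, 21244 and 7401 CPM in Piezo1 GOF, but nearly all of that was Chad (chondroadherin), at 3561, 465 and 2180 CPM in WT and 13738, 20953 and 7209 CPM in the mutant. Acan, Hapln1 and Ucma were also higher in all mutant libraries, at much lower levels, while Col2a1, Col11a2, Sox9 and Matn3 overlapped and Col9a1 was at or near 0. The cartilage marker Matn1 was at 0 in 5 of the 6 libraries. Each of the 8 cartilage markers tested had a positive fold change, with a median log2 fold change of 1.90. At an unadjusted p under 0.05, 6 of them were higher (10.2% of all tested genes). DESeq2 called 4 higher (3.46% of the genes it tested) and edgeR's adjusted threshold 0. Bglap, an osteoblast marker, was at 0 in all WT libraries and at 0.401 to 1.43 CPM in the mutant. The 13 bone and osteoclast markers, with Bglap, summed to 279, 50.9 and 128 CPM in WT. In Piezo1 GOF they summed to 999.7, 1929 and 618 CPM, most of it from Ibsp (886, 1736 and 446 CPM). Of the 8 tested, 7 had a positive fold change and 1 a negative one, with a median log2 fold change of 1.43. The adjusted threshold of edgeR was passed by 0 of these.

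Mmp3 and Mmp13 start 173308 bases apart in a row of 10 metalloproteinase genes on chromosome 9 (7272514 to 7699585 of mm10). The other members of the row were nearly silent. Mmp1a, Mmp1b, Mmp7, Mmp10 and Mmp20 had 0 counts in every library, and Mmp8 and Mmp27 had 11 and 13 counts in all 6 together. Mmp12, the macrophage elastase, had 0, 0 and 4 counts in WT and 5, 0 and 133 counts in Piezo1 GOF replicates 1 to 3. The library with the high Mmp12 value was thus the same one that stood out for Mmp3 and Timp1.

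The promoters of Mmp3 and Mmp13 are shown because these 2 genes of the row share sequence elements, while Mmp3 was higher in all mutant libraries and Mmp13 stayed near the limit of detection. Each line holds the 250 bases before the RefSeq start on GRCm38.p6, plus strand, chr9:7272264-7272513 for Mmp13 and chr9:7445572-7445821 for Mmp3. Capitals mark the AP-1 motif TGAGTCA, which reads as TGACTCA on the other strand, the element bound by Fos and Jun proteins, and the TATA motif TATAAA.
Mmp13: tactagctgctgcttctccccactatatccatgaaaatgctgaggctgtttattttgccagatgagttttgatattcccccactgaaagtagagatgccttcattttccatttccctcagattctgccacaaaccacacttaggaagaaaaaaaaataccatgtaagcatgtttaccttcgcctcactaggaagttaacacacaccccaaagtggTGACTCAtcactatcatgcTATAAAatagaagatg
Mmp3: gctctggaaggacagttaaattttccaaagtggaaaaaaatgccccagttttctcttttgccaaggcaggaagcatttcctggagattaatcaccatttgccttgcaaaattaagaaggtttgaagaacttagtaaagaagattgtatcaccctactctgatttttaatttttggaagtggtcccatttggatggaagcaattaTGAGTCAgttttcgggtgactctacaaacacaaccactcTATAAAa
In these windows the AP-1 motif began 35 bases before the start of Mmp13 and 46 bases before that of Mmp3, and the TATA motif 16 and 7 bases before. Searched on both strands over 250 bases before to 50 bases after the start, the AP-1 motif was found in 5.20%, the TATA motif in 13.6% and both together in 0.941% of 32851 RefSeq promoters. Promoters of 8 members were matched, and neither motif was found in those of Mmp11, Mmp14, Timp1, Timp2, Timp3 or Timp4. Timp1 held TGAGTAA, a variant of the AP-1 motif found in 2.68% of promoters, 27 bases into the transcript (chrX:20870181-20870210, plus strand, the variant in capitals).
Timp1: cggtgggtggaTGAGTAAtgcgtccaggaa
The 300 bases at Timp2 and Timp3 were rich in G and C (68.7% and 67.0%, against a median of 52.7% over all promoters) and held 25 and 24 CG pairs, while those at Mmp3 and Mmp13 held 40.0% and 43.7% and 1 CG pair each. A match of letters describes the sequence and shows no binding.

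The balance of protease to inhibitor transcript was lower in the mutant in every comparison of libraries. The summed level of the 6 proteases over that of the 4 Timps, each as CPM per kilobase of exon within a library, was 0.642, 0.583 and 0.821 in the WT libraries and 0.265, 0.254 and 0.493 in the mutant libraries, in order of replicate number. The highest mutant ratio lay below the lowest WT ratio, and the mean of 0.338 ± 0.135 (SD, n = 3) was 2.02-fold lower than the WT mean of 0.682 ± 0.124. This is a description with no test, since the sum is taken over members that were chosen. The sums behind the ratio differed in their overlap. Summed proteases were 202, 106 and 164 CPM per kilobase in WT and 115, 183 and 253 in Piezo1 GOF, with overlap, and summed Timps were 315, 181 and 199.5 against 435, 721 and 513, without overlap. A ratio within a library does not depend on how that library is scaled for depth.

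Of 4 pairs named from known biochemistry, 3 were lower in all mutant libraries. Mmp2 over Timp2 and Mmp14 over Timp2 share a denominator, and the denominators Timp1 and Timp2 were themselves higher in all mutant libraries. The lower ratios are therefore not separate observations. Mmp2 over Timp2 was 1.03, 1.28 and 1.52 in WT and 0.385, 0.434 and 0.778 in Piezo1 GOF, without overlap. Whether such a ratio lies above or below 1 depends on the gene lengths used. Mmp14 over Timp2 was 0.0379, 0.0523 and 0.0361 in WT and 0.0275, 0.00896 and 0.0240 in the mutant. Mmp3 over Timp1 went the other way, with 0.228, 0.0728 and 0.144 in WT and 0.220, 0.270 and 0.668 in Piezo1 GOF, and these groups overlapped. Mmp13 over Timp1 was 0.0194 to 0.0980 in WT and 0.00248 to 0.00380 in the mutant, but its numerator rests on 2 to 18 counts per library.

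**Figure D4:**
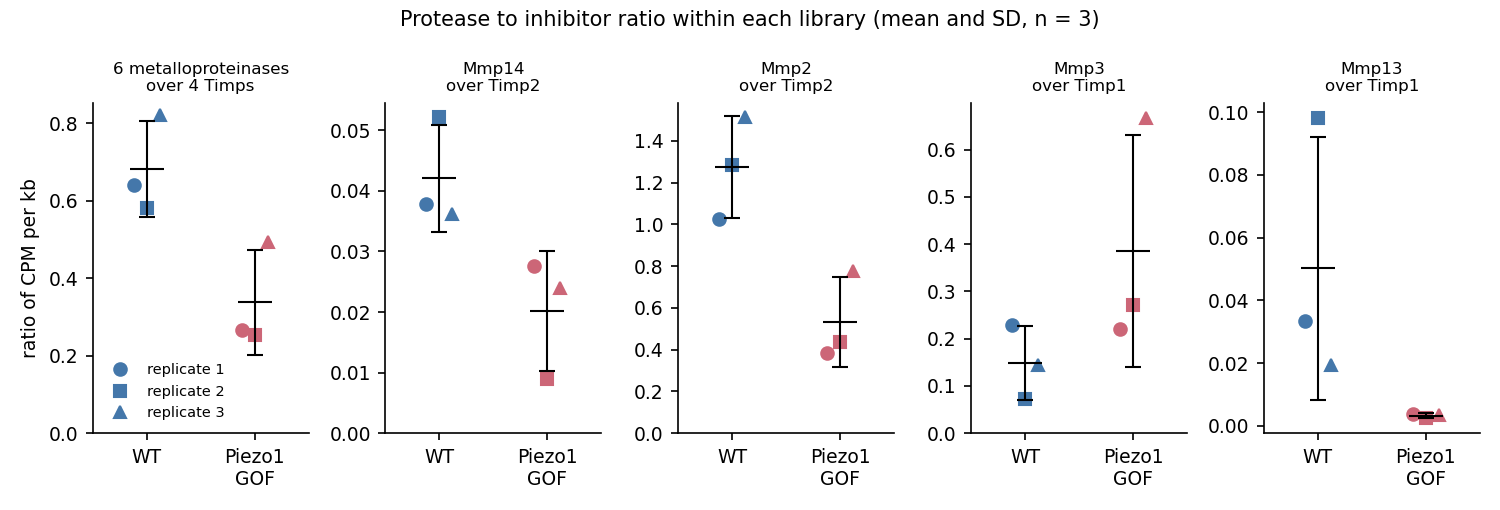
Ratio of protease to inhibitor level (CPM per kilobase of exon) within each library for the 6 proteases over the 4 Timps and for 4 pairs, with WT in blue, Piezo1 GOF in red, marker shapes for replicate numbers and black bars for mean and SD (n = 3). The ratio is lower in all 3 Piezo1 GOF libraries in each panel but Mmp3 over Timp1, where the groups overlap.

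Per kilobase of exon, the order of mean levels in WT ran from Mmp2 (144 CPM per kilobase) through Timp2 (118) and Timp3 (86.2) to Timp4 (16.9), Timp1 (10.6), Mmp14 (4.78), Mmp11 (4.43), Mmp3 (1.83), Mmp19 (1.48) and Mmp13 (0.389). Neighbours in this order overlapped between libraries, except that Timp3 was separate from Timp4, Mmp11 from Mmp3 and Mmp19 from Mmp13. In Piezo1 GOF, Timp2 (297) and Timp3 (203) came before Mmp2 (153), followed by Timp1 (44.4), Mmp3 (21.8), Timp4 (11.9), Mmp14 (5.48), Mmp11 (1.98), Mmp19 (1.56) and Mmp13 (0.150). Mmp2 was there separate from Timp1, Mmp14 from Mmp11 and Mmp19 from Mmp13. The order depends on the length used: with the mean transcript length in place of all exons, Timp3 came before Timp2 in both genotypes. In WT, Mmp14 and Mmp11 then came before Timp1 and Mmp19 before Mmp3, and in Piezo1 GOF, Mmp14 came before Mmp3 and Timp4.

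Timp1, Timp3 and Timp4 each lie within the span of a synapsin gene on the opposite strand, Syn1, Syn3 and Syn2. Syn1 was at 0.383 to 3.21 CPM, Syn3 at 3.96 to 5.86 CPM and Syn2 at 7.92 CPM or less, each below its Timp in every library. Exon bases are shared by Timp3 with Syn3 and by Timp4 with Syn2 but not by Timp1 with Syn1, and Cep295nl within Timp2 and Gm17482 around Timp4 share none. Timp1 is on chromosome X (20870166 to 20874735, plus strand), Timp2 on chromosome 11 (118301069 to 118355740, minus strand), Timp3 on chromosome 10 (86300372 to 86349506, plus strand) and Timp4 on chromosome 6 (115241892 to 115252205, minus strand) of mm10. Mmp2 is on chromosome 8 (92827291 to 92853420, plus strand), Mmp3 on chromosome 9 (7445822 to 7455975, plus strand), Mmp11 on chromosome 10 (75923222 to 75936496, minus strand) and Mmp14 on chromosome 14 (54431612 to 54445364, plus strand). Mmp19 (chromosome 10, 128790910 to 128800824, plus strand) had counts that were not whole and shares exon bases with Gm47093 and Tmem198b on the other strand, the latter at 6.96 to 15.2 CPM, so its value is uncertain.

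Among 17 other metalloproteinase genes, 7 were tested and 0 passed edgeR's adjusted threshold in either direction. At an unadjusted p under 0.05 there was 1 gene up and 1 down, where 10.2% of all tested genes were up and 9.59% down. DESeq2 called 0 higher and 1 lower, against 3.46% and 2.51% of the genes it tested. The lower one, Mmp17, a membrane-anchored member, was at 7.63, 2.17 and 2.15 CPM in WT and 0.780, 0.802 and 1.04 CPM in Piezo1 GOF (-2.15 ± 0.65 on the log2 scale; edgeR adjusted p = 0.164). Mmp23 was at 29.0, 4.92 and 5.32 CPM in WT and 24.2, 49.0 and 35.5 CPM in the mutant, with overlap (1.48 ± 0.64; adjusted p = 0.249). Mmp15, a relative of Mmp14 in the membrane, had a log2 fold change of -1.09 ± 0.51 (adjusted p = 0.272). Mmp9, gelatinase B of neutrophils and osteoclasts, stayed at or under 1.78 CPM in every library.

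A list of 11 genes was drawn up for activation of the proenzymes and the plasmin system. It also holds Htra1 and Prss23, whose part in such activation was not tested. Of the 11, 9 were tested, with a median log2 fold change of 0.47. At an unadjusted p under 0.05, 3 were up and 0 down (10.2% and 9.59% of all tested genes). The adjusted threshold of edgeR was passed by 0 of them. DESeq2 called 2 higher, Htra1 and Pcsk6 (3.46% of the genes it tested). Htra1, a secreted serine protease of the matrix, was at 86.8, 32.8 and 53.5 CPM in WT and 144.5, 179 and 137.5 CPM in the mutant (1.42 ± 0.34; edgeR adjusted p = 0.117). Pcsk6, a proprotein convertase, had a log2 fold change of 0.80 ± 0.22 (adjusted p = 0.136), and Plaur, the urokinase receptor, of 1.55 ± 0.67 (0.248). Furin, which activates Mmp11 and Mmp14, was at 39.7 to 91.6 CPM in WT and 40.1 to 63.7 CPM in Piezo1 GOF (-0.21 ± 0.33).

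Among 15 other inhibitors and clearance genes, 11 were tested, and edgeR's adjusted threshold was passed by 0. At an unadjusted p under 0.05, 4 were up and 1 down (10.2% and 9.59% of all tested genes). DESeq2 gave the same counts (3.46% and 2.51% of the genes it tested). Pcolce, whose part in inhibition or clearance was not tested, is among the genes up by both rules (1.56 ± 0.49 on the log2 scale, edgeR adjusted p = 0.168). The median log2 fold change was 0.17. Serpine2, a serpin that blocks thrombin and plasminogen activators, was at 185, 110.5 and 161 CPM in WT and 408, 478 and 335 CPM in Piezo1 GOF (1.42 ± 0.29; edgeR adjusted p = 0.0931). Cst3, cystatin C, an inhibitor of cysteine cathepsins, was at 1885, 1255 and 1188 CPM in WT and 5506, 9635 and 3509 CPM in Piezo1 GOF (2.11 ± 0.52; adjusted p = 0.120). Reck, a membrane-anchored inhibitor of metalloproteinases, had a log2 fold change of 1.05 ± 0.37 with no overlap between the groups (adjusted p = 0.188).

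All 14 other proteases listed as Timp-inhibited were tested, and 0 passed edgeR's adjusted threshold, with a median log2 fold change of 0.22. The list was drawn up by name, and whether Timps block each of these proteases was not tested. At an unadjusted p under 0.05, 4 were up and 1 down (10.2% and 9.59% of all tested genes). DESeq2 called 2 up (3.46% of the genes it tested). Adamts5, an aggrecanase blocked by Timp3, was at 75.2, 43.0 and 59.0 CPM in WT and 165, 168 and 169.9 CPM in Piezo1 GOF (1.51 ± 0.25; edgeR adjusted p = 0.0572). Adamts2, the procollagen N-proteinase, had a log2 fold change of 1.21 ± 0.35 (adjusted p = 0.153), and Adamts1 of -0.99 ± 0.33 (0.178) with overlapping groups. Adam17 was at 35.5 to 55.4 CPM in WT and 37.9 to 54.2 CPM in the mutant (0.09 ± 0.24).

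Of 10 other genes of collagen breakdown and uptake, all tested, 6 were up and 0 down at an unadjusted p under 0.05. Over all tested genes these shares were 10.2% and 9.59%. DESeq2 called 4 up (3.46% of the genes it tested) and edgeR's adjusted threshold 0, with a median log2 fold change of 0.91. Cathepsin S (Ctss) had a log2 fold change of 2.18 ± 0.32 (edgeR adjusted p = 0.0572) and the mannose receptor Mrc1 of 1.51 ± 0.23 (0.0572), both of them macrophage markers too. For Mfge8, a bridging protein of phagocytic uptake, it was 1.52 ± 0.39 (edgeR adjusted p = 0.127). The collagen uptake receptor Mrc2 was at 107, 74.1 and 131 CPM in WT and 177, 215 and 172 CPM in Piezo1 GOF (0.85 ± 0.26; adjusted p = 0.165). Cathepsin K (Ctsk), the collagenase of osteoclasts, overlapped between the groups (1.49 ± 0.68; adjusted p = 0.264).

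Of 10 tested membrane partners and collagen sensors, 2 were up and 0 down at an unadjusted p under 0.05 (10.2% and 9.59% of all tested genes). The 2 were Cd44 (0.77 ± 0.29; edgeR adjusted p = 0.208) and Emp1 (0.71 ± 0.29; 0.225), and edgeR's adjusted threshold and DESeq2 called 0. Ddr2, the collagen receptor upstream of Mmp13 in chondrocytes, was at 108 to 221 CPM in WT and 209 to 318 CPM in the mutant (0.64 ± 0.31; adjusted p = 0.291). Of 11 substrates of the proteases, all tested, each had a positive fold change, with a median of 1.69. At an unadjusted p under 0.05, 8 were up (10.2% of all tested genes). DESeq2 called 4 (3.46% of the genes it tested) and edgeR's adjusted threshold 0. Of the 11, 6 also stand in a marker list. Spp1 had a log2 fold change of 3.14 ± 0.51 (adjusted p = 0.0572), Acan of 2.12 ± 0.36 (0.0572) and Dcn of 2.38 ± 0.57 (0.114).

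Macrophage markers were higher in the mutant beside Mmp3 and Timp1. The 15 macrophage markers summed to 255, 184 and 294 CPM in WT and 701, 723 and 860.1 CPM in Piezo1 GOF. At an unadjusted p under 0.05, 13 of 15 were higher (10.2% of all tested genes). DESeq2 called 12 higher (3.46% of the genes it tested) and edgeR's adjusted threshold 0. Within the mutant the highest macrophage sum was in replicate 3, as for Mmp3, Timp1 and Mmp12, but the sums differed far less between libraries than Mmp3 did. In WT the highest sum was also in replicate 3, while Mmp3 and Timp1 were highest in replicate 1. Lyz2 was the largest part of the sum, at 82.0 to 107 CPM in WT and 301 to 339 CPM in the mutant. The 9 neutrophil markers in the table summed to 6.67 to 17.7 CPM in WT and 52.8 to 123 CPM in the mutant, but nearly all of that was Lcn2, at 5.32 to 15.6 CPM in WT and 45.9 to 119 CPM in the mutant. S100a8 was at 3.51 CPM or less, with 1, 1 and 2 counts in WT and 23, 35 and 26 counts in the mutant. Its log2 fold change was 4.39 ± 0.72 (edgeR adjusted p = 0.0572). S100a9 was at 0 in 5 of 6 libraries, Csf3r overlapped between the groups, and Retnlg, Camp, Ngp, Mpo and Elane were at or near 0. Of the 3 neutrophil markers tested, 2 were higher at an unadjusted p under 0.05 (10.2% of all tested genes). The 11 sheath and progenitor fibroblast markers summed to 671 to 1325 CPM in WT and 2567 to 4421 CPM in the mutant, most of it in the mutant from Prg4 (269 to 580.0 CPM and 1524.5 to 3367 CPM). The part of these cells in the levels of Mmp3 and Timp1 was not tested.

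By the mean absolute difference of centred log2 CPM over the 6 libraries, the genes nearest to Timp1 among 10950 candidates were Itgb2 (0.23) and C3ar1 (0.25). Those nearest to Mmp3 were Lilr4b (0.51) and Lilrb4a (0.55), at a larger distance than for any other member. For Timp2 they were Lincppara (0.09) and Ggh (0.10), for Timp3 Atp6v0e (0.11) and Tmem39a (0.11), and for Timp4 Lonrf1 (0.18) and Polr1b (0.22). For Mmp2 they were Pcdhga8 (0.07) and Klhl4 (0.08), for Mmp11 Cd24a (0.10) and Slc22a23 (0.11), for Mmp14 Arhgef28 (0.09) and Ppp1r18 (0.10), and for Mmp19 Sirt5 (0.09) and Nsf (0.11).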

How the data were processed

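The authors deposited unscaled values that were used here as estimated counts (rounded), since 7.80% to 8.88% of them per library were not whole and the submitters' processing notes name RSEM. These notes also list bcl2fastq, STAR, edgeR and the mm10 build, with no versions or roles. Annotation and strand setting: not given in the sources used here. Counts were rounded, filtered with filterByExpr (minimum count 10), scaled by TMM and compared between genotypes with edgeR's quasi-likelihood test over all 13466 genes left, two-sided and without covariates. SE is the log2 fold change over the root of F. Replicate pairs had a chi-square per degree of freedom of 38.7 to 133, so none was a copy. Lengths and positions came from GENCODE M21 on the same build, and promoters from RefSeq on GRCm38.p6. Libraries were made with the RamDA-seq kit and its NSR primers for mouse, per the labels. The members and lists were chosen with earlier results of these data known. The named genes were all members, up to 3 per list with the smallest p, genes that overlap a member and the 2 nearest by pattern (mean CPM of at least 5), and further list genes were named after their values were seen. The values of 1 listed gene that the rule names are not reported here. The alternatives were other scalings, filters, tools, a replicate block, a muscle covariate, removal of muscle markers and leaving out each library, and, added after seeing the data, removal of Rn45s and Lars2. Software was R 4.3.3, edgeR 4.0.16, limma 3.58.1, DESeq2 1.42.0 and Python 3.11.15.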

Additional observations from a re-analysis of the deposited data

How the results depend on the processing

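Over all genes, edgeR called 2 with TMM, 0 without scaling factors, 165 without the count filter, 0 with the replicate block, 0 with the muscle covariate, and 0 to 228 with 1 library left out (228 without WT replicate 1), while DESeq2 called 882, the exact test 689 and limma voom 116. Of the members, edgeR called 0, with 5 at an unadjusted p under 0.05, DESeq2 called 4, the exact test 5 and limma voom 0, and no setting of edgeR's quasi-likelihood test called any. Without scaling factors the median of all genes moved by 0.10 on the log2 scale. Mmp3, Mmp11, Timp1, Timp2, Timp3 and Timp4 kept their direction in all 18 alternatives. Mmp2 turned to -0.023 with limma voom, -0.22 with the muscle covariate, -0.15 without WT replicate 2 and -0.10 without Piezo1 GOF replicate 3 (range -0.15 to 0.33 with 1 library left out). Mmp19 turned to -0.025 with the replicate block, and to -0.10, -0.20 and -0.04 without WT replicate 2, Piezo1 GOF replicate 1 and Piezo1 GOF replicate 3 (range -0.20 to 0.42), and Mmp14 to -0.026 without Piezo1 GOF replicate 1 (up to 0.57 without WT replicate 1). The log2 balance difference was -1.07, and lay between -1.38 and -0.90 with 1 library left out and between -1.21 and -1.03 with other lengths or without Mmp3. Same-numbered replicates had deviations that correlated at -0.21, -0.14 and -0.05, so no pairing by number was visible. With 3 libraries per group these values cannot exclude a pairing. Where no cause is named, the cause was not tested. On simulated counts for 13466 genes of this comparison the fit recovered 14%, 74%, 100% and 100% of 50 genes each changed 2-, 4-, 8- and 16-fold, with 9 false calls. Mmp3, at 12.4-fold, was not called in the real libraries. Spp1 (8.81-fold) and Lcn2 (8.62-fold), with smaller SE than Mmp3, were not called either (edgeR adjusted p = 0.0572 for both). The simulated counts thus did not behave like the real libraries, and these shares do not show what the fit could find among the members.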
